A study of Mus musculus with 6 samples.

Results

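In mouse B cells of the germinal center (GC), sorted from wild-type animals, 920 of 33362 consensus H3K4me3 regions (2.76%) lay only at promoters annotated as noncoding. H3K4me3 is a histone mark of active promoters, and H3K4me1 is a mark found largely at enhancers and on the flanks of promoters. A consensus region was a stretch of merged, touching or overlapping peaks found in at least 2 of 3 H3K4me3 libraries. The 920 regions were chosen by position and H3K4me3 peaks together, as those over 5 kb from every transcription start site (TSS) of a GENCODE protein-coding transcript and covering or within 1 kb of the TSS of a long noncoding RNA (lncRNA) or microRNA (miRNA) gene. They are called noncoding promoter regions here, and the rest were 14892 coding promoter regions, within 5 kb of a coding TSS, and 17550 other distal regions. With RefSeq mRNA start sites also counted as coding, the rule gave 843 regions, so coding here means coding in GENCODE. Because the choice used the H3K4me3 peaks, the H3K4me3 values below are a description without a test.

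The data were peak lists from Mint-ChIP, a form of chromatin immunoprecipitation in which nuclease-cut chromatin of small cell samples is barcoded before samples are pooled. All 6 libraries, 3 for H3K4me3 and 3 for H3K4me1, came from spleens of mice labelled WT, taken on day 8 after immunization with sheep red blood cells (SRBC), with 50000 sorted cells per library. No treatment or mutant group was present, and the labels give no strain, age or sex. The cell type label is centrocyte, a light zone GC B cell, but the methods of the study describe GC B cells as a whole. The extraction text of the labels names an H3K27ac antibody, whereas titles, antibody labels and design name H3K4me1 and H3K4me3, and the titles were followed.

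Most lncRNA and miRNA genes are transcribed by the same polymerase as messenger RNA genes, and their active start sites can carry H3K4me3. LncRNA genes include regulators of nearby or whole-chromosome expression and host transcripts from whose introns small nucleolar RNAs or miRNAs are cut. MiRNAs shorten the life of messenger RNAs that pair with their seed, and several of them set the pace of the GC reaction. The annotated 5′ end of a miRNA gene is that of its hairpin and not the start of its primary transcript, which may lie far upstream.

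Peak numbers were 46707, 41936 and 42862 in H3K4me3 replicates 1, 2 and 3 and 24136, 13923 and 11922 in H3K4me1 replicates 1, 2 and 3. H3K4me1 replicate 1 thus held the most peaks of its mark, and it gave the highest H3K4me1 share in each class below. Total read counts were not used here, so the sequencing depth behind a peak is unknown, and absence from a list says only that no peak passed the authors' threshold. As a check of the cell type, H3K4me3 peaks lay within 1 kb of a coding TSS in 3 of 3 libraries at 12 of 12 genes of B cells and GC B cells, 4 of 4 of plasma cells, 0 of 8 of T cells, 1 of 7 of myeloid cells and 0 of 6 of other tissues. Of the erythroid genes, Hbb-bt and Klf1 had a peak in 3 libraries, whereas Gata1 and Hba-a1 had one in 0 libraries, and their part in the results was not tested.

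To show the letters behind these promoters, 3 windows of 300 bases are printed, from 250 bases before the TSS to 50 bases from it on, 5′ to 3′ on the strand of the gene, with every CG dinucleotide (CpG) in capitals. They were read from the GRCm38 genome. Snhg5, a host of small nucleolar RNAs (chr9:88522841-88523140 on the minus strand), is an extreme and not a typical example of the CpG-rich windows. Gm27201, an antisense lncRNA in an intron of Fli1 (chr9:32508163-32508462 on the plus strand), and Gm32126, a lncRNA whose nearest coding gene was Bcl6 (chr16:24168512-24168811 on the minus strand), stand for the CpG-poor windows.
Snhg5: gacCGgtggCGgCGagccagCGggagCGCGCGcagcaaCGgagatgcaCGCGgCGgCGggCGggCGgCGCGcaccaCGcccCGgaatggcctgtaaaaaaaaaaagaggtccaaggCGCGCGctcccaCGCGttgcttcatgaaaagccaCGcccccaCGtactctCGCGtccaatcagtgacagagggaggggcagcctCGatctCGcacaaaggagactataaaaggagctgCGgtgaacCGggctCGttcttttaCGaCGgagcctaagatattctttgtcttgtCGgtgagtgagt
Gm27201: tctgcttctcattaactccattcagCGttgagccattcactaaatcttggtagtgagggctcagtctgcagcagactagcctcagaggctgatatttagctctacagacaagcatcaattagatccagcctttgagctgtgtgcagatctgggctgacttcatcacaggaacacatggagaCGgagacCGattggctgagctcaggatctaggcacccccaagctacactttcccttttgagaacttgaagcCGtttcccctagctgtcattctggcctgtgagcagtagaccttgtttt
Gm32126: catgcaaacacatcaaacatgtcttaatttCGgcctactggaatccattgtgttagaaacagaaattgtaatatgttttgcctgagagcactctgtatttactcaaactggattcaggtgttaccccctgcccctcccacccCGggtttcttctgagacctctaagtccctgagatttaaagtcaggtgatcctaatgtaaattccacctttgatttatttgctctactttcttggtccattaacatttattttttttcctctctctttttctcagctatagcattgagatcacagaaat
These windows held 35, 4 and 2 CpGs in the order printed. The ratio of observed to expected CpGs, which corrects for base composition, was 1.24, 0.22 and 0.19. The last pair lay in regions of 21594 bp and 13517 bp, which were among the widest, whereas the Snhg5 region measured 3848 bp. In width this pair is not typical. Over all noncoding promoter regions, median width was 1981 bp with a CpG-rich window and 1742 bp with another.

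Of the 920 noncoding promoter regions, 81 lay at 87 miRNA genes, of which 48 matched a RefSeq (GRCm38.p6) entry by symbol. The following mature sequences belong to miRNAs known from B cells or other blood cells, plus miR-9 as one known mainly from neural tissue, and are printed as RNA, 5′ to 3′, with the seed (bases 2 to 8) in capitals.
mmu-miR-155-5p: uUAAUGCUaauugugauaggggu
mmu-miR-17-5p: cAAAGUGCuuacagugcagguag
mmu-miR-18a-5p: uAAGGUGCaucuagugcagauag
mmu-miR-21a-5p: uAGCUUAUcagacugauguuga
mmu-let-7i-5p: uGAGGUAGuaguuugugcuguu
mmu-miR-148a-3p: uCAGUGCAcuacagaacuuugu
mmu-miR-23a-3p: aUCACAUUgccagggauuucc
mmu-miR-27a-3p: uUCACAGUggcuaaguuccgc
mmu-miR-24-3p: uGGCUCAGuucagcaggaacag
mmu-miR-9-5p: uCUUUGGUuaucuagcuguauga
The matched miRNA genes carried 80 distinct seeds. Only 2 of these seeds were shared by separate genes, and both belonged to Mir9-1 and Mir9-2, whose mature forms are the same.

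The regions were found in most libraries. H3K4me3 peaks were present in 899, 854 and 870 of the 920 regions in replicates 1, 2 and 3, and 783 regions (85.1%) had a peak in all 3 libraries, while 137 had one in 2. A further 411 regions of the same kind had a peak in 1 library and were not counted. All 3 libraries shared 88.4% of coding promoter regions and 73.4% of other distal regions, so noncoding promoter regions lay between these in repeatability. Median width was 1805 bp, with quartiles of 1110 and 2784 bp and a range of 206 to 21594 bp, against medians of 1995 bp for coding promoter regions and 1301 bp for other distal regions. Each peak carries a value that was read as a linear fold enrichment from the layout of the deposited lists, and its exact definition is not given in the sources used here. The median of this fold enrichment, taken as the highest of the peaks in a region, was 5.43, 5.19 and 4.998 in replicates 1, 2 and 3. Coding promoter regions had 6.05, 5.58 and 5.57, and other distal regions had 4.64, 4.59 and 4.42, so the order of the classes was the same in each library.

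At the limits of the rule, the noncoding promoter regions nearest to a coding TSS were at Gm44892 on chromosome 7 (5003 bp away, mean fold enrichment 7.61, 3 libraries) and at Gm26522 on chromosome 7 (5102 bp, 3.796, 2 libraries). Just outside were regions at Gm47061 on chromosome 13 (4991 bp, 4.01, 3 libraries) and at AC102496.1 on chromosome 18 (4946 bp, 3.78, 2 libraries). At the limit of 1 kb from a noncoding TSS, the regions inside were at Gm28609 (994 bp, 3.12) and AC144797.1 (982 bp, 4.02), and those outside at Gm47288 (1001 bp, 4.68) and Gm24047 (1014 bp, 5.39). At the noncoding limit both outer regions were higher than both inner ones.

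The regions covered or neighboured TSSs of 950 noncoding genes, and 643 of them (69.9%) covered a noncoding TSS. Single regions held TSSs of 2 or more genes in 55 cases, and 34 genes had 2 or more regions, so regions and genes do not correspond one to one. Counted from the annotation, 994 of 9439 noncoding genes with a TSS over 5 kb from coding TSSs (10.5%) had a consensus H3K4me3 region within 1 kb, including regions that themselves reached within 5 kb of a coding TSS. The share was 10.6% for lincRNA genes (554 of 5234), 11.7% for antisense genes (203 of 1735), 11.6% for sense_intronic genes (30 of 259) and 24.7% for genes of the processed_transcript class (110 of 446), which includes small nucleolar RNA hosts such as Snhg5. The miRNA class was lowest, with 5.37% (93 of 1733), and its 95% Wilson interval of 4.40% to 6.53% lay below those of the other named classes. The interval of processed_transcript, 20.9% to 28.9%, lay above the rest, and intervals cover counting error only.

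**Figure D1:**
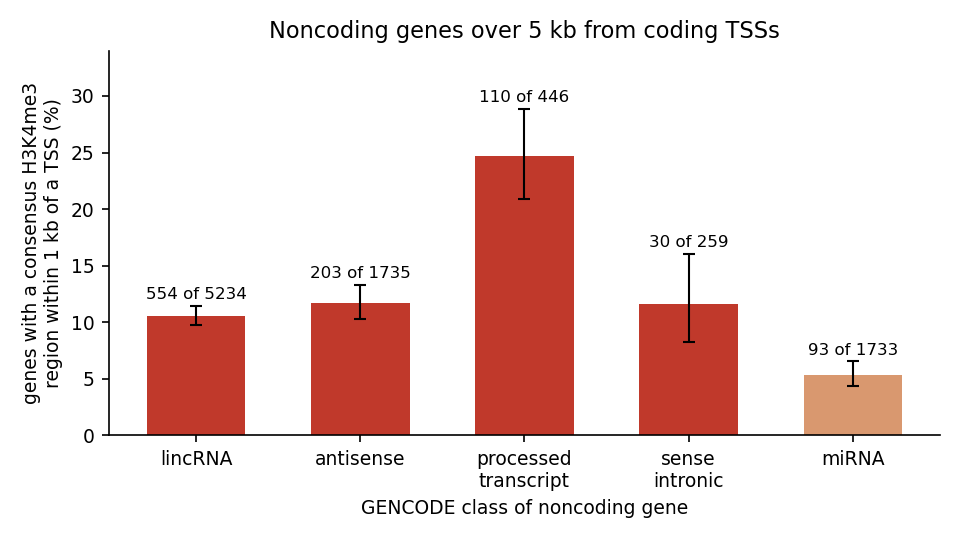
Share of noncoding genes with a TSS over 5 kb from coding TSSs that had a consensus H3K4me3 region within 1 kb, in percent, by GENCODE class. Bars show the share, error bars the 95% Wilson interval and labels the gene counts, and the processed_transcript class, at 24.7%, stands above and miRNA, at 5.37%, below the others.

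As a background for position, the share expected if each region were placed anywhere on its own chromosome with equal chance was worked out exactly from interval lengths, assembly gaps included. Uniform placement would make 1.33% of consensus regions noncoding promoter regions, against 2.76% observed, a ratio of 2.07. Among regions over 5 kb from coding TSSs the expected share was 1.41% and the observed share 4.98%, a ratio of 3.53. These ratios are descriptions with no test, since the rule fixed the members.

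Noncoding promoter regions lay outside coding genes in 655 cases (71.2%), in introns of coding genes in 166 cases (18.04%) and over a coding exon in 99 cases (10.8%). Other distal regions lay outside coding genes in 44.8%, in introns in 42.6% and over exons in 12.7% of cases. The median distance to a coding TSS was 31717 bp, against 27967 bp for other distal regions. Within the 265 regions inside coding genes, the noncoding gene ran antisense to its host in 191 cases (72.1%), on the same strand in 64 and on both strands in 10. They lay in 241 coding hosts, of which 187 (77.6%) had a consensus H3K4me3 region within 1 kb of a coding TSS of their own. The share over all 21864 coding genes was 55.2%. Similarly, the nearest coding gene had such a region for 79.1% of noncoding promoter regions and for 83.3% of other distal regions.

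Most hosts held 1 region, and 23 hosts held 2 or more. The hosts with the most, named after their counts were seen, were Gm20388 with 4 regions, and Bcar3, Hipk1, Nedd9, Sox5 and Tcf20 with 3 regions each. At Sox5, a transcription factor gene, they belonged to the overlapping transcripts Sox5it, Sox5os3 and Sox5os5. At Nedd9, an adaptor of integrin signalling, they belonged to Gm48570 and Gm48571. Only 3 regions were within 5 kb of an immunoglobulin or T cell receptor gene segment. One of these, on chromosome 12 from 113425400 to 113429506, lay in the immunoglobulin heavy chain locus at the miRNA entries Gm22175, Gm24022 and Gm25747, with fold enrichment of 7.27, 7.07 and 5.23 in replicates 1, 2 and 3.

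Noncoding genes known from B cells and other blood cells were inspected as a list of 47 annotated genes, chosen with earlier results of these data known. Consensus H3K4me3 regions lay at 22 of the 47, and 15 of these were at noncoding promoter regions. The other 7, among them Mir142hg, Mir150 and Mir22hg, had regions that reached within 5 kb of a coding TSS. For comparison, 10.5% of all distal noncoding genes had a region, a share that excludes genes close to coding TSSs. The difference is a description of a chosen list.

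The miR-155 locus held separate regions at both ends of the gene. Mir155hg, the host transcript of miR-155, had at its TSS on chromosome 16 a region from 84702078 to 84710018 with fold enrichment of 7.02, 6.08 and 6.15 in replicates 1, 2 and 3. Mir155, the hairpin itself, had a region of 1284 bp with 6.47, 5.26 and 5.13. MiR-155 is needed for a full GC response, and both regions were present in all 3 libraries with the host promoter the wider. H3K4me1 peaks overlapped the Mir155hg region in all 3 libraries (5, 5 and 1 peaks) and the Mir155 region in all 3 (1 peak each).

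Mir17hg, the host of the miRNA cluster that includes miR-17 and miR-18a and favours lymphocyte growth, had a narrow region of 602 bp on chromosome 14 whose end lay 23 bp from the Mir17hg TSS. Its fold enrichment was 6.60, 11.7 and 10.1 in replicates 1, 2 and 3, with replicate 1 lowest, and it overlapped 0 H3K4me1 peaks in each library. Mir21a, a miRNA raised in many lymphomas, lay in the second widest region of all, 20915 bp over exons of its coding host Vmp1, with 5.85, 6.23 and 5.77. The merged width hides a difference between libraries, because the widest single peak measured 19590, 4953 and 12388 bp in replicates 1, 2 and 3. Mirlet7i, a member of the let-7 family, had a region on either side of its hairpin, with 7.37, 7.55 and 7.003 upstream of the minus-strand hairpin and 5.88, 4.38 and 5.18 downstream. The values of these flanking regions did not overlap.

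Dleu2, the host of miR-15a and miR-16-1 that is deleted in human chronic lymphocytic leukaemia, had separate regions of 5130 bp and 7677 bp at alternative TSSs. Their fold enrichment was 9.21, 6.15 and 7.94 at the former and 8.39, 6.96 and 7.19 at the latter. Mir148a, a miRNA abundant in B lineage cells, had 5.08, 6.05 and 4.93, and Mir210, a miRNA induced by hypoxia, had 5.72, 5.97 and 4.67. Mir23a, Mir27a and Mir24-2 share 1 region with low values of 3.07, 3.44 and 3.5. Trp53cor1, a lncRNA of the p53 response, had 3.92, 3.56 and 4.17. The regions at Mir34a and Mir28a had a peak in 2 libraries, with 3.52 and 3.90 at Mir34a in replicates 1 and 3, and 4.17 and 3.23 at Mir28a in replicates 1 and 2.

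Widely used lncRNA genes formed the second list. Of 39 annotated genes, 33 (84.6%) had a consensus region and 23 were at noncoding promoter regions. The share was 10.5% over all noncoding genes with a TSS over 5 kb from coding TSSs, a limit that the 39 did not have to meet. The abundant nuclear RNAs Malat1 and Neat1 had regions of 7585 bp and 6805 bp. Malat1 had nearly equal fold enrichment of 6.36, 6.36 and 6.32 in replicates 1, 2 and 3, and Neat1 had 6.59, 6.50 and 6.25. Pvt1, which neighbours Myc, had 9.40, 8.73 and 8.31. Among hosts of small nucleolar RNAs, Snhg8 had 11.5, 9.03 and 6.86, with the widest spread of these examples, and Snhg5 had 7.99, 6.87 and 6.01. The other Snhg regions, at Snhg6, Snhg15, Snhg17 and Snhg20, had a peak in all 3 libraries.

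Genes of X inactivation were marked together. Xist, the RNA that coats the inactive X chromosome, had a region of 4480 bp with 6.70, 5.46 and 6.41 in replicates 1, 2 and 3. Its activators Jpx and Ftx had 6.78, 5.22 and 5.91 and 8.91, 6.96 and 7.51, and its antisense repressor Tsix had a region of 760 bp with 5.08, 3.92 and 3.65. Firre, another X-linked lncRNA, had 4.21, 5.50 and 4.13. In replicates 1, 2 and 3 alike, Tsix was below Xist, Jpx and Ftx. Imprinted noncoding transcripts also had regions in all 3 libraries, with 5.87, 7.23 and 7.55 at Kcnq1ot1 within Kcnq1, 6.90, 5.74 and 7.24 at Airn within Igf2r, and 5.23, 6.37 and 5.06 at Peg13 within Trappc9.

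**Figure D2:**
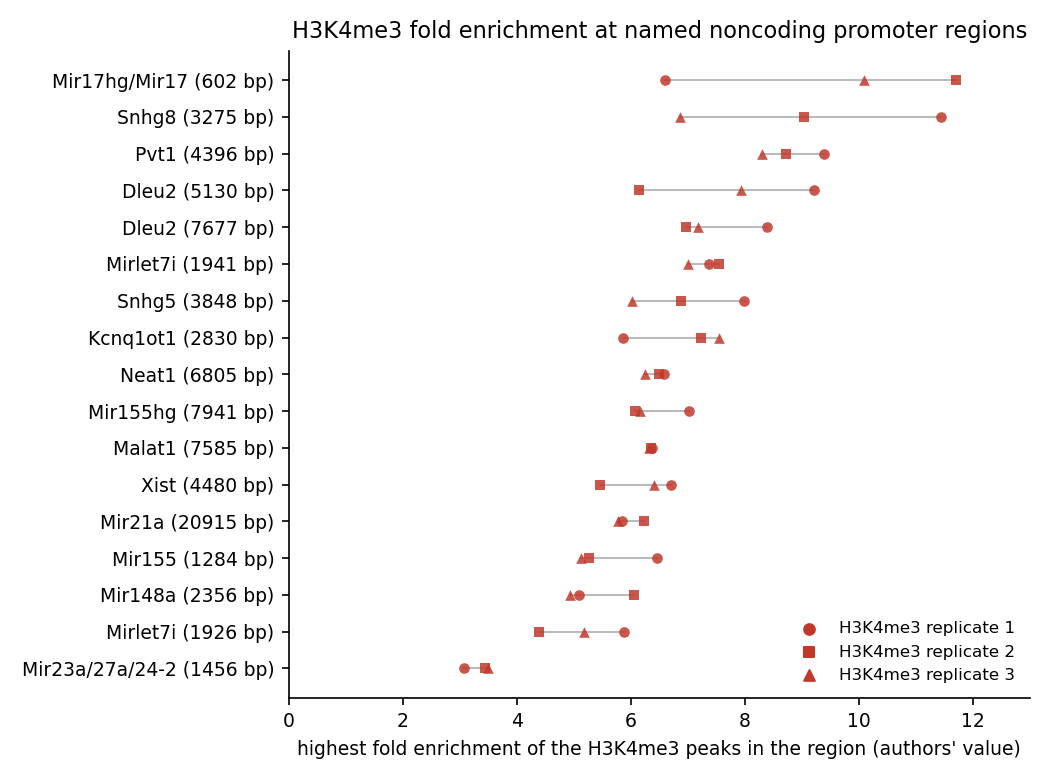
Fold enrichment of H3K4me3, read as such from the layout of the deposited lists, at named noncoding promoter regions, with 1 marker per H3K4me3 replicate and the region width beside each name. Grey lines join the lowest and highest replicate, and the Mir17hg and Snhg8 regions span the widest ranges (6.60 to 11.7 and 6.86 to 11.5), while Malat1 stays between 6.32 and 6.36.

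Noncoding genes of other tissues were listed too. Of 49 annotated genes, 8 (16.3%) had a consensus region, against 10.5% of all noncoding genes with a TSS over 5 kb from coding TSSs, a limit that the 49 genes did not have to meet. At noncoding promoter regions were 6 of the 49. Mir9-2, a neural miRNA whose nearest coding gene was Mef2c, had 5.76, 4.77 and 4.28 in replicates 1, 2 and 3, and Mir9-1 had 3.79, 4.49 and 4.57. Sox2ot, which overlaps the pluripotency gene Sox2, had 3.11, 3.41 and 3.96, and Pantr2, a lncRNA beside Pou3f3, had 4.52, 3.89 and 3.28. Mir203 had a pair of narrow regions of 661 and 346 bp. Mir124a-1hg had 6.94, 6.70 and 3.97, the highest mean of these 6 genes. Within 1 kb of the TSS, H3K4me1 peaks were present in at least 2 libraries at 2 of the 15 blood genes, 4 of the 23 widely used genes and 0 of the 6 just named, against 176 (18.5%) of the 950 noncoding genes at noncoding promoter regions.

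Ranked by mean fold enrichment, the highest regions were mostly at genes without a given name. The first, at Gm1976 and Gm26734 on chromosome 17 from 94833674 to 94835696, had 13.9, 13.7 and 7.90 in replicates 1, 2 and 3, and the second, at Gm39469 on chromosome 9 from 124280890 to 124282671, had 13.9, 9.55 and 10.8. E430024I08Rik on chromosome 13 had 12.5, 10.2 and 10.9. 4930578M01Rik on chromosome 15 had 12.9, 10.1 and 10.3. The next were at AC131712.1 in an intron of Cdkl4, Gm4035 near Ly86, Gm44734 near Chd2, Gm13012 in an intron of Ece1, Gm23739 near Cts3 and Mir3086 in an intron of Hspa12a, with single values between 7.68 and 13.4. All 10 were under 4 kb wide, so the highest regions were not the widest ones. Among regions at miRNA genes, Gm23739, Mir3086 and Mir17hg were followed by Mir6546 in an intron of the Fc receptor gene Fcgr3 (6.85, 11.4 and 8.91), Gm23633 over an exon of Arhgef3 (8.18, 7.44 and 9.23) and Mir3970 in an intron of Rnls (5.47, 9.25 and 7.68).

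The widest regions belonged to other genes. Gm27201, antisense in the intron of Fli1, an ETS transcription factor of blood cells, had 21594 bp with 6.88, 5.53 and 5.49 in replicates 1, 2 and 3. Its widest single peak measured 8076, 6513 and 20904 bp. Gm45615 in an intron of Rras2, a small GTPase, had 16473 bp with 7.48, 6.86 and 6.92, and its widest single peak measured 10778, 11347 and 12730 bp. Gm32126, 172150 bp from the TSS of Bcl6, the master regulator of the GC, had 13517 bp with 5.62, 6.23 and 4.999. The region at 2310001H17Rik and Gm47861, 31467 bp from Cd69, an early activation marker, had 15047 bp with 6.44, 5.73 and 6.43. The others of the 10 widest were Mir21a and the regions at Gm40634 and 1700027J07Rik, C030013C21Rik in Myo1d, Gm47418, Gm39556 near Ly6e and Gm48765 in Fars2, which measured 12374 bp or more.

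The marks were then profiled around the start sites. For each noncoding promoter region, the noncoding TSS nearest to its middle was taken, whereas coding TSSs needed only a consensus region within 1 kb. The sets were thus not chosen alike, and shares near the TSS depend partly on this choice. At the TSS itself, H3K4me3 peaks covered 59.2% ± 3.59 (SD, n = 3) of the 844 lncRNA TSSs of noncoding promoter regions and 77.2% ± 4.12 (SD, n = 3) of 22591 coding TSSs with a consensus region within 1 kb. H3K4me1 peaks covered 3.91% ± 2.69 (SD, n = 3) of the lncRNA TSSs at the start site, with 6.99%, 2.73% and 2.014% in replicates 1, 2 and 3. The mean at 250 and 500 bp downstream was also 3.91%. The libraries differed in shape: replicate 1 was higher at the start site than at 500 bp on either side (4.03% upstream and 5.69% downstream), while replicates 2 and 3 were lower there than at 500 bp upstream (3.91% and 2.49%) and downstream (3.55% and 2.49%). At the coding TSSs H3K4me1 covered 1.01% ± 0.58 (SD, n = 3) at the start site and reached 3.93% ± 1.94 (SD, n = 3) at 750 bp downstream. In replicates 1, 2 and 3 the coding TSSs had 1.68%, 0.682% and 0.677% at the start site. This profile was examined without a test.

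**Figure D3:**
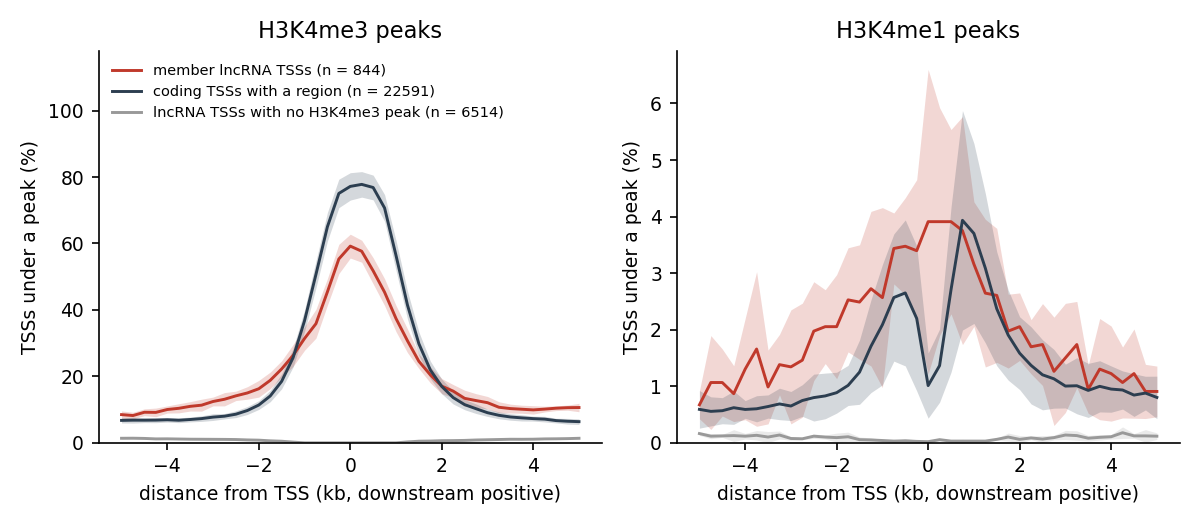
Share of TSSs, in percent, under an H3K4me3 peak (left) and an H3K4me1 peak (right) at distances from 5 kb before to 5 kb after the TSS, for lncRNA TSSs of noncoding promoter regions, coding TSSs with a consensus H3K4me3 region and lncRNA TSSs with no H3K4me3 peak. Lines show the mean and bands the SD over 3 libraries of a mark, and in the right panel the coding line dips to 1.01% at the TSS while the lncRNA line stands at 3.91%, a mean of 6.99%, 2.73% and 2.014% in replicates 1, 2 and 3. For each noncoding promoter region the noncoding TSS nearest to its middle was taken.

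H3K4me1 peaks were not used to choose the regions, and H3K4me1 was compared between classes within each H3K4me1 library. The overlap still depends on region width, which comes from the H3K4me3 peaks. H3K4me1 peaks overlapped 41.4%, 29.0% and 24.02% of the 920 noncoding promoter regions in replicates 1, 2 and 3, which average 31.5% ± 8.95 (SD, n = 3). For coding promoter regions the shares were 35.1%, 21.6% and 20.3%, and for other distal regions 41.4%, 27.9% and 25.2%. Noncoding promoter regions exceeded coding promoter regions by 5.81 ± 1.91 percentage points (SD, n = 3), higher in 3 of 3 libraries (two-sided exact sign-flip permutation p = 0.25, adjusted p = 0.3125 over 5 tests). They differed from other distal regions by -0.0036 ± 1.12 percentage points (SD, n = 3; exact permutation p = 1). The smallest p that 3 libraries allow is 0.25, so none of these contrasts can pass 0.05.

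H3K4me1 peaks covered 94.0, 58.2 and 45.7 bp per kb of noncoding promoter regions in replicates 1, 2 and 3, against 69.8, 36.6 and 31.9 bp per kb of coding promoter regions and 117, 66.1 and 55.3 bp per kb of other distal regions. The mean difference was 19.9 ± 5.43 bp per kb (SD, n = 3) from coding promoter regions, higher in 3 of 3 libraries, and -13.6 ± 8.45 bp per kb (SD, n = 3) from other distal regions, lower in 3 of 3 libraries. Both had an exact sign-flip permutation p of 0.25 and an adjusted p of 0.3125. In each library the noncoding promoter regions thus lay between the other classes.

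Since a wide region meets a peak more easily, and noncoding promoter regions were wider than other distal regions, the classes were also compared within 4 width ranges, chosen after the data were seen and given without a test. Below other distal regions in all 3 libraries and every range, noncoding promoter regions differed by a mean of -4.95 ± 3.07 (SD) percentage points under 1 kb, -6.29 ± 1.68 from 1 to 2 kb, -10.9 ± 4.20 from 2 to 4 kb and -4.31 ± 3.14 at 4 kb or more. Against coding promoter regions they were higher in all 3 libraries in the ranges from 1 kb up, by 5.0 ± 1.30, 9.63 ± 4.57 and 9.88 ± 1.496 percentage points. Under 1 kb the difference of 1.23 ± 3.16 percentage points had no constant sign.

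**Figure D4:**
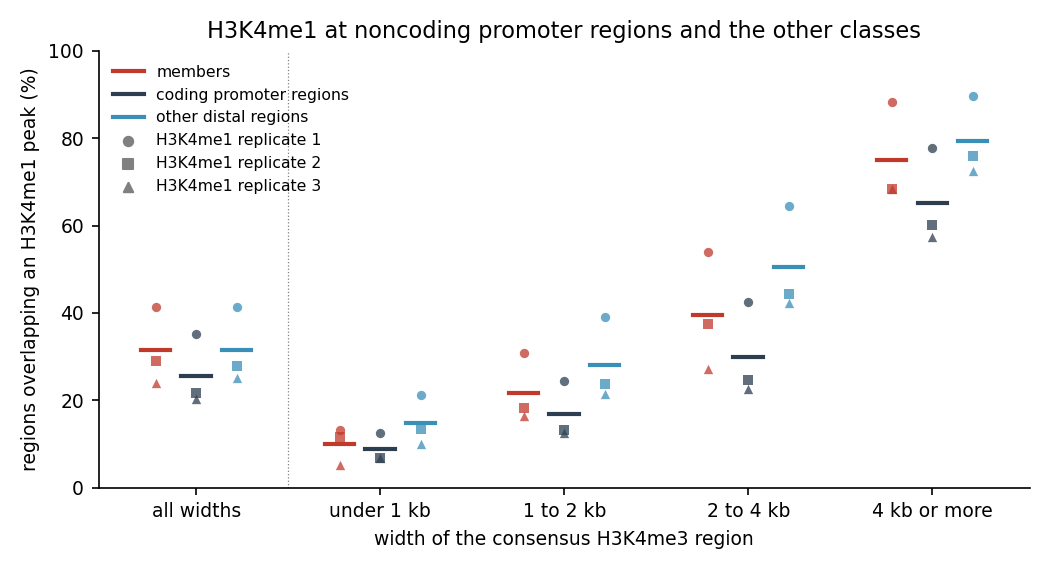
Share of consensus H3K4me3 regions, in percent, that overlap an H3K4me1 peak, for noncoding promoter regions (labelled members), coding promoter regions and other distal regions, over all widths and in 4 width ranges. Markers are the 3 H3K4me1 libraries and bars their mean, and the mean for noncoding promoter regions lies between the other classes in each width range, at 39.5% against 29.9% and 50.4% from 2 to 4 kb.

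Counted by consensus H3K4me1 regions, found in at least 2 of 3 libraries, 203 noncoding promoter regions (22.1%, 95% Wilson interval 19.5% to 24.9%) overlapped one. The share over all consensus H3K4me3 regions was 19.3%, with 15.7% of coding promoter regions and 22.3% of other distal regions, so the noncoding promoter regions lay near the background. Uniform placement on the same chromosome would give 0.895%. The share fell with each library left out, when both others had to hold the region, and by more than 1.5 times without replicates 1 or 2. It was 9.13% without H3K4me1 replicate 1, 12.5% without replicate 2 and 15.1% without replicate 3, against 5.71%, 8.90% and 9.27% of coding promoter regions. Peak by peak, 418 of the 920 regions had an H3K4me1 peak in 0 libraries, 247 in 1, 143 in 2 and 112 in 3. In 0 libraries were also 7704 of 14892 coding promoter regions and 7729 of 17550 other distal regions.

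Regions inside coding genes had a higher H3K4me1 share than those outside in 3 of 3 libraries. It was 47.2%, 33.2% and 28.3% of the 265 regions inside and 39.1%, 27.3% and 22.3% of the 655 regions outside coding genes in replicates 1, 2 and 3. The difference was 6.66 ± 1.24 percentage points (SD, n = 3), without a sign change (two-sided exact sign-flip permutation p = 0.25, adjusted p = 0.3125). Median width was 1665 bp inside and 1831 bp outside, so the regions inside were the narrower ones. By gene class, given without a test, a consensus H3K4me1 region was met by 48.1% of the 27 sense_intronic regions, 26.02% of the 196 antisense regions, 20.5% of the 532 lincRNA regions and 16.8% of the 107 processed_transcript regions.

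The regions with the most H3K4me1 peaks were all among the 10 widest. Gm27201 in Fli1 had 12, 5 and 9 peaks in H3K4me1 replicates 1, 2 and 3. The region at 2310001H17Rik and Gm47861 near Cd69 had 4, 5 and 7, and Gm45615 in Rras2 had 7, 5 and 4. Mir21a had 5, 5 and 6, and Gm32126 near Bcl6 had 6, 6 and 2. The regions at Xist, Jpx, Kcnq1ot1, Airn, Mir17hg and Snhg20 measured 602 to 4480 bp and overlapped 0 H3K4me1 peaks in each library. They shared this with many others, as 418 of the 920 noncoding promoter regions overlapped none.

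The start sites lay between unmarked lncRNA genes and coding genes in CpG content. In the window of 300 bases, the 844 lncRNA TSSs of noncoding promoter regions had a median GC content of 51.0% and a median CpG ratio of 0.34, against 46.7% and 0.19 for 6514 lncRNA TSSs with no H3K4me3 peak and 61.7% and 0.78 for 22585 coding TSSs with a region. A window was called CpG-rich at a ratio of at least 0.6 and a GC content of at least 50%, limits chosen after the data were seen. CpG-rich windows made up 17.8% of the lncRNA TSSs of noncoding promoter regions (95% Wilson interval 15.3% to 20.5%), 2.21% of those with no peak (1.88% to 2.60%) and 70.9% of the coding TSSs.

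**Figure D5:**
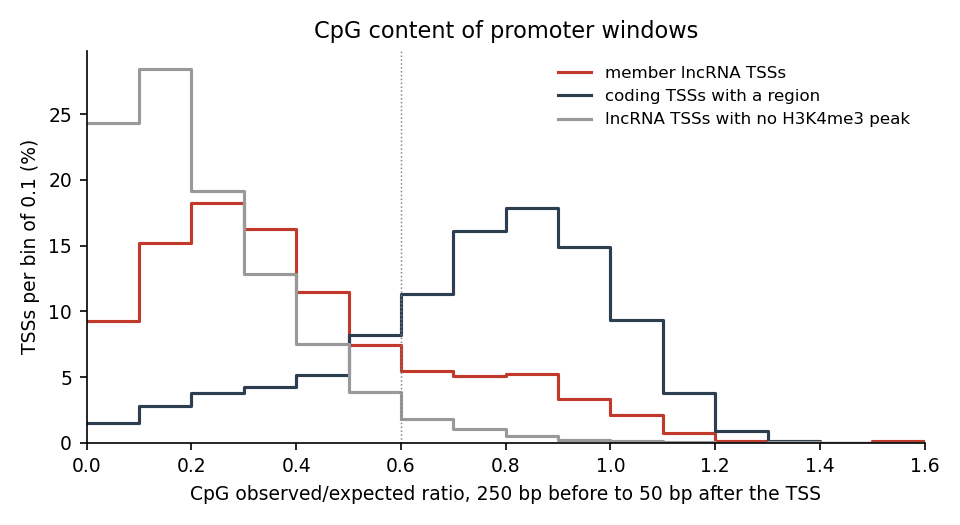
Distribution of the CpG observed/expected ratio in windows from 250 bp before to 50 bp after the TSS, as the percent of TSSs per bin of 0.1, for lncRNA TSSs of noncoding promoter regions, coding TSSs with a consensus H3K4me3 region and lncRNA TSSs with no H3K4me3 peak. The dotted line marks 0.6, and the lncRNA TSSs of noncoding promoter regions, with a median of 0.34, lie between unmarked lncRNA TSSs (0.19) and coding TSSs (0.78).

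H3K4me1 differed with CpG content. In replicates 1, 2 and 3, H3K4me1 peaks overlapped 34.8%, 18.3% and 16.5% of the 164 noncoding promoter regions with a CpG-rich window and 42.9%, 31.3% and 25.7% of the other 756. The difference, 10.1 ± 2.60 percentage points (SD, n = 3), had the same sign in 3 of 3 libraries, and it is given without a test because the split was chosen after the data were seen. CpG-rich regions were the wider, with a median of 1981 bp against 1742 bp. Splits by kind of gene, distance to coding TSSs and position on the TSS were also made after the data were seen. The mean share over 3 libraries was 31.6% ± 9.09 (SD) at the 839 regions with lncRNA genes alone and 32.0% ± 8.37 at the 73 with miRNA genes alone, and the 8 regions with both had 12.5% in each library. It was 33.8% ± 12.4 at 5 to 10 kb, 31.6% ± 8.26 at 10 to 50 kb and 30.4% ± 8.70 over 50 kb from a coding TSS, and 33.0% ± 9.68 for regions that covered the noncoding TSS against 28.0% ± 7.26 for those beside it.

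Short motifs were searched on both strands of the same windows, and their share is a description of letters, not of bound factors. The GC box (GGGCGG) was in 24.6% of the lncRNA windows of noncoding promoter regions, 6.60% of windows with no peak and 65.6% of coding windows. The ETS motif CCGGAAGT was in 2.84%, 0.783% and 8.47% in the same order, and the CRE motif TGACGTCA in 2.13%, 0.537% and 3.41%. These motifs hold a CpG, and they followed the order of CpG content. The PU.1 motif GAGGAAGT, bound by an ETS factor of B cells and myeloid cells, was in 5.92%, 2.67% and 3.11%. The octamer ATGCAAAT, bound by OCT factors, was in 3.32%, 1.83% and 1.399%. For both motifs the lncRNA windows of noncoding promoter regions had the highest share of these sets. The TATA box (TATAAA) was in 14.3%, 15.9% and 6.11%, the CCAAT box (CCAAT) in 34.5%, 41.2% and 36.9%, the RUNX motif TGTGGT in 22.2%, 20.3% and 11.8%, and the YY1 motif AAGATGGC in 2.37%, 2.12% and 5.02%. The octamer and PU.1 shares of the lncRNA windows of noncoding promoter regions rest on 28 and 50 windows. At the 76 miRNA 5′ ends of noncoding promoter regions, the PU.1 motif was in 1 window (1.32%) and the octamer in 0.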

How the data were processed

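Mint-ChIP peak lists of 3 H3K4me3 and 3 H3K4me1 libraries were used, grouped by the mark in the sample titles. Peak calling by the authors was done library by library. The submitters' processing notes name mm10, BWA, Picard, HOMER and Genrich, and the caller's settings and control are not given in the sources used here. The deposited columns have no header: from the layout, 1 was read as fold enrichment (a linear ratio) and 2 as −log10 p-value and −log10 q-value, and their exact definition depends on the caller, which the notes do not settle. H3K4me3 lists have the broad and H3K4me1 lists the narrow layout, with lowest −log10 q-values of 1.02 to 1.14 and 1.31 to 1.32.

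Coordinates were read as GRCm38. There were 0 peaks past a chromosome end. Genes came from the GENCODE M21 basic annotation (protein-coding transcripts of protein-coding genes; lncRNA classes and miRNA, without TEC). Peaks were merged where they touched or overlapped, and marks overlapped at 1 bp or more. H3K4me1 differences were tested with a two-sided exact sign-flip permutation test over 3 libraries, Benjamini-Hochberg adjusted over 5 tests. No source says whether the libraries came from separate mice, so these p-values compare libraries, whose differences may be technical. With 3 libraries, the sign-flip p is 0.25 whenever all 3 differences share a sign, whatever their spread. Named regions were the 10 highest by mean fold enrichment among those in 3 libraries, the 10 widest, up to 12 at miRNA genes, those at genes of 3 lists, the 5 with the most H3K4me1 peaks and those at the limits, of which some are described by count. The regions and lists were chosen with earlier results of these data known. Region selection, overlap counts and placement were tested on simulated data. Python 3.11.15, numpy 2.4.6, scipy 1.17.1 and pysam 0.24.0 were used. Alternatives covered distances, libraries, peak thresholds, merging, annotation and overlap.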

Additional observations from a re-analysis of the deposited data

How the results depend on the processing

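Each of 8 results was recomputed under 22 alternatives, of which 4 were chosen after the data were seen: RefSeq mRNA start sites, immunoglobulin and T cell receptor segments counted as coding, the full GENCODE transcript set, and miRNA genes left out. The H3K4me1 excess over coding promoter regions (4.27 to 7.36 percentage points) and the excess inside coding genes (5.09 to 12.3) kept their sign in all 22. So did the covered length against coding promoter regions (10.6 to 22.2 bp per kb) and other distal regions (-39.0 to -11.3). These ranges are for alternatives that kept every library. With a library left out, the covered length differed by 17.7 to 23.995 bp per kb from coding promoter regions. From other distal regions it then differed by -19.5 to -8.73 bp per kb. Both excesses stayed inside their ranges. No p can pass 0.05 with 3 libraries, so the kept signs say nothing of significance. The number of regions was 445 at a −log10 q-value of at least 5 and 269 with 10000 peaks per library, chosen by q-value, and 786 to 920 with a library left out. It was 843 with RefSeq mRNA start sites counted as coding. The H3K4me1 share of the regions was 15.0% at the stricter q-value and 26.5% to 35.2% with a library left out. The difference from other distal regions, near 0, was -12.2 with 10000 peaks, -3.90 at the stricter q-value and -2.83 with 3 of 3 libraries, each lower in 3 of 3 H3K4me1 libraries, changed sign when the region had to cover the TSS (1.53), when peaks within 1 kb were merged (1.52), with TEC genes (1.21), with H3K4me1 peaks lying mostly inside (0.409) and with RefSeq start sites (0.483), and ran from -2.47 to 0.565 with a library left out. The share of distal noncoding genes marked was 11.6% at a coding distance of 2 kb, 9.85% at 10 kb, 7.56% when the region had to cover the TSS, 9.15% with 3 of 3 libraries, 5.32% at the stricter q-value, 3.31% with 10000 peaks, 9.77% with TEC genes, 11.7% without miRNA genes and 9.09% to 10.5% with a library left out. The causes were not tested. No paired analysis was possible because no test sets the libraries of the 2 marks, which share replicate numbers, against each other; the tests already pair region classes within each H3K4me1 library. Peak lists carry no total reads, so the depth behind an absent peak is unknown.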
